A study of Mus musculus with 16 samples.

Results

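The cytosolic ribosomal protein genes encode the protein parts of the ribosome that works in the cytoplasm. They were taken as the rows of the count table named Rpl or Rps followed by digits and at most 1 letter, plus Rplp0, Rplp1, Rplp2 and Rpsa, with a mean of at least 1 CPM (counts scaled to a common library total). Of 55401 rows, 83 carried such a name and 79 were kept, 48 of the large and 31 of the small subunit. Rpl3l at 0.354 CPM, Rps4l at 0.0282 CPM, Rpl39l at 0.0131 CPM and Rpl10l at 0 CPM fell below the level. The lowest kept were Rpl32l at 9.82 CPM, Rpl6l at 124.5 CPM and Rps27l at 158.4 CPM. GENCODE M21 annotates 77 of the 79 as protein-coding, and Rpl32l and Rpl6l as processed pseudogenes. Rps3a1, at 1281 CPM, encodes a small subunit protein but has a digit after its letter and is not among the 79.

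The cells were MC38, a mouse colon adenocarcinoma line, labelled WT (sample titles gNC) or Ythdf2-KO (titles gY2), in culture with no other treatment in the labels. The 16 libraries comprised m6A immunoprecipitation and its input (3 libraries per genotype each), and YTHDF2 RNA immunoprecipitation (RIP) and its input (2 each) from cells labelled WT. Gene counts were analysed for the 6 m6A inputs, and 1 peak list each for WT m6A, KO m6A and RIP. The labels do not say whether the KO is 1 clone, or whether replicates are separate cultures. The p-values therefore cover only the spread among these libraries, which may be technical.

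Total counts per input library ran from 45441281 to 50959555. Ythdf2 stood at 61.3 ± 6.63 CPM (SD, n = 3) in WT and 63.1 ± 4.27 CPM in the KO libraries (log2 fold change 0.04, edgeR adjusted p = 0.809). A whole-gene count does not check an edited site, and the libraries are called KO-labelled. The first KO-labelled library stood apart from the other KO-labelled ones, with a chi-square per degree of freedom of 63.9 and 64.3 against them, where those differed by 9.25. The first WT library differed from the other WT libraries by 25.3 and 27.4, where those differed by 8.31. Markers of colon epithelium were at or near 0: the 8 summed to 1.12 to 1.51 CPM in WT and 0.589 to 0.830 CPM in KO-labelled libraries, with Epcam and Krt18 at 0 in all 6. The 7 leukocyte markers summed to 55.3 to 76.0 CPM and 42.8 to 122.9 CPM, nearly all of it Cd68, and the 3 endothelial markers to 0.978 to 1.44 CPM and 1.32 to 2.68 CPM. The 6 fibroblast markers summed to 318.3 to 363.2 CPM and 258.3 to 294.2 CPM, with 5 of 6 lower in KO-labelled libraries and a median log2 fold change of -0.87. By edgeR, Dcn among them fell (58.5 to 33.2 CPM, adjusted p = 0.0355), as did the leukocyte marker Cd3d (1.11 to 0.383 CPM, adjusted p = 0.0461). Both calls ended in 5 of the 6 fits that left out 1 library. The part of these markers in the results below was not tested.

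A ribosome needs its proteins in equal numbers, apart from the stalk proteins P1 and P2, and growing cells make the mRNAs for them in large amounts. These mRNAs are short, and many start with a C followed by a run of pyrimidines, the 5′ terminal oligopyrimidine (TOP) motif, through which mTOR signalling and LARP1 control their translation and stability. N6-methyladenosine (m6A) is a base modification laid down on mRNA mostly in the DRACH sequence context, most often near stop codons and in long exons. YTHDF2 binds m6A in the cytoplasm and recruits the machinery that shortens poly(A) tails.

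The TOP motif was read at the annotated start sites. RefSeq start regions (GRCm38.p6) were matched for 58 of the 79 genes. A C at the first base followed by at least 4 pyrimidines, on the sense strand only, was present in 14 of them (24.1%), against 3.01% of all genes in the table, 2.92% of other genes of at least 1 CPM and 0 of 69 mitochondrial ribosomal protein genes. A match lying wholly within the 5 bases before the annotated start and the 10 bases from it was present in 50.0% of the ribosomal protein genes. It was present in 24.6% of mitochondrial ribosomal protein genes, 23.8% of other genes of at least 1 CPM and 21.2% of all genes. Annotated starts were not measured here, so a missing match says only that these letters are not at that base. The 14 stretches follow, each with 10 bases before the start and 15 from it, and with the pyrimidine run from the annotated start in capitals.
Rpl14 (chr9:120571507-120571531, plus strand): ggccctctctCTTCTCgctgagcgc
Rpl15 (chr14:18270972-18270996, minus strand): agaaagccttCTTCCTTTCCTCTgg
Rpl28 (chr7:4792955-4792979, plus strand): tctcgtgtctCTCTTTCCgtctccg
Rpl32l (chr10:20208429-20208453, plus strand): aaatgaccagCTTCTTCCTTggtgc
Rpl35 (chr2:39005117-39005141, minus strand): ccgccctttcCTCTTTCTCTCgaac
Rpl35a (chr16:33056472-33056496, plus strand): gcttgccttcCTCTTTCCgccatct
Rpl38 (chr11:114668570-114668594, plus strand): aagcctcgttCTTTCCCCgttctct
Rplp2 (chr7:141447641-141447665, plus strand): cagcgtcttcCTTTCgccgccggac
Rps10 (chr17:27635230-27635254, minus strand): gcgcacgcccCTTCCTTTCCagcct
Rps15a (chr7:118116133-118116157, minus strand): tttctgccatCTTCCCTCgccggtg
Rps18 (chr17:33955651-33955675, minus strand): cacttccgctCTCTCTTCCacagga
Rps21 (chr2:180257369-180257393, plus strand): aggacccgccCTCCTgcccaatagt
Rps27 (chr3:90213634-90213658, minus strand): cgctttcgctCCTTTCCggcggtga
Rps6 (chr4:86857353-86857377, minus strand): gaagtcgggcCTCTTTTTCgtgacg
The run was longest, 13 bases, at Rpl15, and shortest, 5 bases, at Rplp2 and Rps21. Rpl32l, a processed pseudogene in GENCODE, has a run of 10 bases at its RefSeq start.

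The bases under m6A peaks are shown next, because the peak lists are described from them. Of the 7 WT peaks of ribosomal protein genes with a deposited score of 0, the most extreme value, 6 had coding sequence in their longest block, and the first 6 sequences give that stretch (GRCm38). The other peak with that score lies in Rpl21. The last 2 sequences are stretches of Rpl36 and Rpl41 that hold no DRACH. The rest of the Rpl41 peak does: the window around its centre, in the 3′ UTR, holds 3 DRACH sites and 1 GGACT. Capitals mark DRACH, which is A, G or T, then A or G, then A, then C, then A, C or T, on the sense strand only.
Rpl4 (chr9:64178223-64178444, plus strand, 222 bases): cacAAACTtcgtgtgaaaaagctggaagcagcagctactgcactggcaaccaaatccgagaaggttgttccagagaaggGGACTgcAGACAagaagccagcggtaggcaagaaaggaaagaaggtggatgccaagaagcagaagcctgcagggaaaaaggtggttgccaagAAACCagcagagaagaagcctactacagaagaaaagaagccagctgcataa
Rps6 (chr4:86854702-86854899, minus strand, 198 bases): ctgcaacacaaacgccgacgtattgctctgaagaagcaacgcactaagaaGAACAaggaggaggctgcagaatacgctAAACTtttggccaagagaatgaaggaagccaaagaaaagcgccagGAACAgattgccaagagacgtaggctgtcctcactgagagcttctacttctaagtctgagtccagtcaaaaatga
Rpl5 (chr5:107904717-107904894, plus strand, 178 bases): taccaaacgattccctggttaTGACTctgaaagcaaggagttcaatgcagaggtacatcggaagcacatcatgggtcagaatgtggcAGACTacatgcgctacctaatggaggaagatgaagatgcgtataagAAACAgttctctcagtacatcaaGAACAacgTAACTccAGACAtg
Rpl19 (chr11:98029395-98029515, plus strand, 121 bases): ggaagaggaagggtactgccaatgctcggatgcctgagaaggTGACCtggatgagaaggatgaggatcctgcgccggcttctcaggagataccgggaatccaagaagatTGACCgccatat
Rpl13a (chr7:45125946-45126032, minus strand, 87 bases): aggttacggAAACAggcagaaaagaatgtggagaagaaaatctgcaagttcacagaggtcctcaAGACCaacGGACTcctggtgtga
Rpl14 (chr9:120573764-120573817, plus strand, 54 bases): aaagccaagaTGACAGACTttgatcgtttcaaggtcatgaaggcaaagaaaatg
Rpl36 (chr17:56614124-56614213, plus strand, 90 bases): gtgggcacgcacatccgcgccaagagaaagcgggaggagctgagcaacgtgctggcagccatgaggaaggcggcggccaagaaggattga
Rpl41 (chr10:128548387-128548429, minus strand, 43 bases): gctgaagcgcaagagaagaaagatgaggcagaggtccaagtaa
Rpl4 and Rpl13a each hold 1 GGACT, the DRACH form most often methylated, and the stretches of Rps6, Rpl5, Rpl19 and Rpl14 hold none. The stretch of Rpl5, a protein that binds 5S rRNA, holds 6 DRACH sites, and that of Rpl4 holds 4. The stretches of Rpl4, Rps6, Rpl13a, Rpl36 and Rpl41 end at the stop codon. Each stretch is the coding part of the longest block of the peak and not the whole peak.

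The 77 genes with a coding transcript had a median of 754.5 CPM over the 6 libraries. Other protein-coding genes of at least 1 CPM had 39.0 CPM, and of the 79 genes Rpl32l alone lay below that. The 79 genes took 6.23, 6.68 and 6.80% of all counts in the WT libraries and 6.003, 5.81 and 5.68% in the KO-labelled libraries. The 3 KO-labelled values were all below the 3 WT values. The large subunit genes took from 3.81 to 4.17% in WT, and from 3.50 to 3.67% in the KO-labelled libraries, and the small subunit genes 2.42 to 2.64% and 2.19 to 2.34%. The 78 mitochondrial ribosomal protein genes, which serve the separate ribosome inside mitochondria, took 0.537, 0.556 and 0.561% in WT and 0.588, 0.529 and 0.513% in KO-labelled libraries, with groups that overlap.

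**Figure D1:**
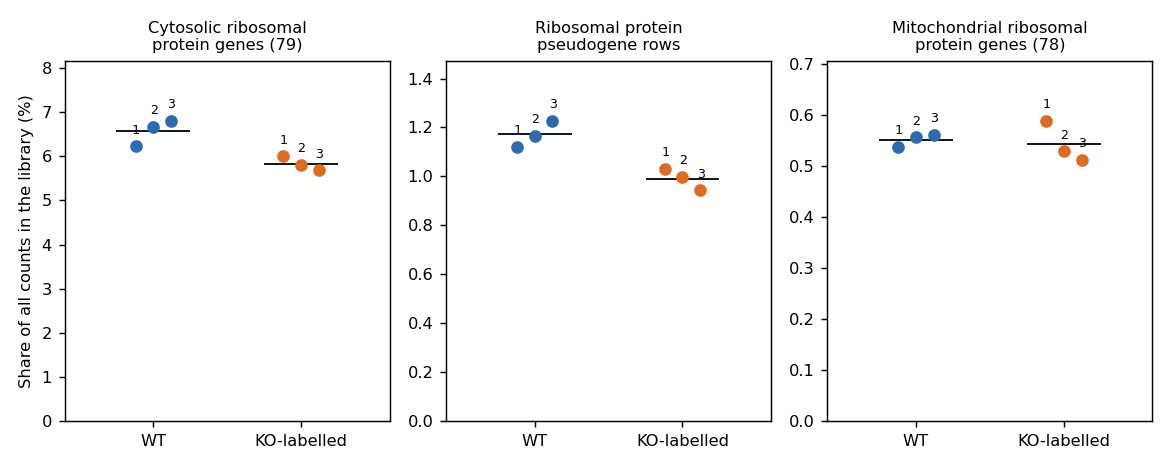
Share of all counts (%, axes from 0) in each input library, numbered by replicate, for the 79 cytosolic ribosomal protein genes, the 318 pseudogene rows named after ribosomal protein genes, and the 78 mitochondrial ribosomal protein genes; bars are means of 3 libraries. The KO-labelled points lie below all WT points in the first 2 panels and overlap them in the third.

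The separation depended on the scale. Shares use the total count, whereas with TMM scaling, which sets most genes equal between libraries, the level summed to 59880, 67385 and 67191 CPM for the WT replicates and to 58583, 60201 and 58967 CPM for the KO-labelled replicates. On that scale the first WT library lay within the KO-labelled range. It was the lowest WT library for 74 of the 79 genes. The median over the 79 genes of log2 CPM relative to the WT mean was -0.11 in that library, 0.05 and 0.06 in the other WT libraries, and -0.14, -0.10 and -0.13 in the KO-labelled ones.

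Between genotypes, no ribosomal protein gene passed the test, but 71 of 79 had a fold change below 0, KO-labelled over WT, against 50.7% of all genes tested. Their median log2 fold change was -0.12, with a range from -0.39 to 0.11, against -0.01 for all 18969 genes tested. With edgeR's quasi-likelihood test at an adjusted p below 0.05, 0 of 79 genes were called, and the lowest adjusted p was 0.0583. Over all genes tested, 4.54% were called (861 genes), 2.99% higher and 1.54% lower. At an unadjusted p below 0.05 there were 26 ribosomal protein genes (32.9%), all 26 lower, against 29.5% of all genes in either direction. In 34 of the 79 (43.0%) the 3 KO-labelled values all lay below the 3 WT values, against 16.2% of all genes, and in 0 they all lay above, against 17.7%. The genes share their libraries, so these counts are not independent of each other.

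The number of calls moved with the fit. DESeq2 called 17 of 79 lower (21.5%, against 7.96% of all genes) and 0 higher. Without the first KO-labelled library, edgeR called 9 lower (11.4%, against 16.1%), and without the first WT library it called 1. A filter at a mean of 10 CPM gave 15 of 78 lower (19.2%, against 4.32%), and scaling by total count gave 2. For total-count scaling and the fit without the first WT library no share over all genes is at hand, so those counts have no background. The call by DESeq2 and the call without the first KO-labelled library shared 6 genes. The median log2 fold change stayed between -0.20 and -0.09 in every fit, with -0.20 without the first WT library.

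**Figure D2:**
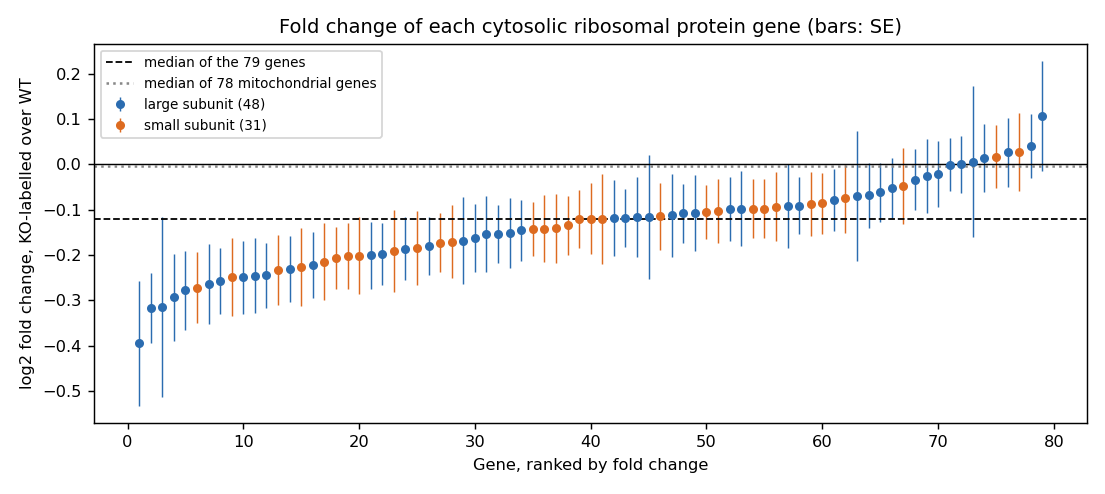
Log2 fold change, KO-labelled over WT, of each of the 79 genes ranked from lowest to highest, with the edgeR standard error as bars; blue points are large subunit genes and orange points small subunit genes. The dashed line is their median, -0.12, and the dotted line the median of the 78 mitochondrial genes, 0.00 to the second decimal; both subunits are spread over the whole ranking.

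Both subunits lay mostly below 0. Of the large subunit genes 42 of 48 were below 0 (median -0.12), 21 without overlap between the groups. Of the small subunit genes 29 of 31 were below 0 (median -0.13), 13 without overlap. Over all genes tested, 16.2% had KO-labelled values wholly below the WT values. No test of a difference between subunits was run.

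Rpl13a, a large subunit protein also known from the human interferon-gamma response, had the lowest adjusted p. WT replicates had 1796, 2131 and 2070 CPM, and KO-labelled replicates had 1620, 1609 and 1587 CPM. The lowest WT library stood above the highest KO-labelled one. The log2 fold change was -0.32 (SE 0.08, edgeR adjusted p = 0.0583). It passed with adjusted p = 0.0254 without the first KO-labelled library, 0.0466 without the first WT library, 0.0403 with total-count scaling, 0.0298 with the 10 CPM filter and 0.0060 with DESeq2. It did not pass in the other 9 alternatives, where edgeR adjusted p-values ran from 0.0567 to 0.229, the highest without the third WT library.

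The other 4 of the 5 lowest fold changes belonged to Rpl32l, Rpl36, Rpl23a and Rpl15, and none passed edgeR's test. Rpl32l, the pseudogene row, stood at 10.3, 10.4 and 12.7 CPM in WT, and 8.80, 8.76 and 7.86 CPM in the KO-labelled libraries (log2 fold change -0.39, edgeR adjusted p = 0.114). Rpl36 stood at 607.1, 728.8 and 770.5 CPM against 579.6, 568.2 and 571.0 CPM (log2 fold change -0.29, adjusted p = 0.0990 by edgeR). Rpl23a, which sits at the exit of the peptide tunnel, stood at 450.8, 491.9 and 539.7 CPM against 389.8, 401.3 and 431.4 CPM (log2 fold change -0.28, adjusted p = 0.0919 by edgeR). The groups did not overlap in these 3 genes. DESeq2 gave adjusted p = 0.0440, 0.0370 and 0.0271 for Rpl32l, Rpl36 and Rpl23a, and the 10 CPM filter gave 0.0461 for Rpl23a. All other alternatives gave these genes edgeR adjusted p-values from 0.0502 to 0.341. Rpl15 stood at 472.5, 706.2 and 810.2 CPM in WT, and 622.9, 496.7 and 479.9 CPM in the KO-labelled libraries. Its groups overlapped, its WT libraries differed from each other by more than the group means did, and edgeR gave a log2 fold change of -0.31 with adjusted p = 0.326. The fold change was -0.52 without the first WT library and -0.15 without the third. With its pseudogene rows added, which together exceed the gene, it was -0.17.

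At the other end, 8 of 79 genes had a fold change above 0. Rplp2, a stalk protein, was highest, with 474.1, 403.1 and 347.2 CPM in WT, and 474.8, 432.0 and 411.8 CPM in the KO-labelled libraries. The groups overlapped (log2 fold change 0.11, edgeR adjusted p = 0.589), and without the third WT library the fold change was 0.00. The next were Rpl4 (log2 fold change 0.04), Rps27l, a p53-responsive paralog of Rps27 (0.03), Rpl7a (0.03) and Rps2 (0.02). All 4 overlapped between groups, had edgeR adjusted p-values from 0.732 to 0.891, and turned below 0 with total-count scaling and with the 10 CPM filter.

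The members with particular roles showed small differences. Rplp0, the base of the stalk, stood at 2043 ± 200.5 CPM (SD, n = 3) in WT and 1895 ± 63.3 CPM in KO-labelled libraries, and Rplp1 at 634.0 ± 42.2 and 592.4 ± 5.05 CPM. Rpsa, also known as the laminin receptor, had a log2 fold change of -0.05, and Rps27a, made as a fusion with ubiquitin, of -0.12. Rpl6l, a pseudogene row, had -0.05 and Rpl41 had -0.15. These 6 genes had edgeR adjusted p-values from 0.249 to 0.742. Rpl10a, named by the same rule, stood at 787.4, 889.5 and 926.6 CPM in WT, and 764.0, 716.3 and 711.0 CPM in the KO-labelled libraries, with no overlap (log2 fold change -0.25, edgeR adjusted p = 0.0981). It passed with adjusted p = 0.0372 by DESeq2, 0.0381 without the first KO-labelled library and 0.0495 with the 10 CPM filter. It did not pass in the other 11 alternatives, where edgeR adjusted p-values ran from 0.0693 to 0.313.

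Levels were then set per length of transcript, since the products are needed in equal numbers. For the 77 genes with a coding transcript the median was 1094 CPM per kb in WT and 1024 CPM per kb in KO-labelled libraries. In WT, 71 of the 77 were within 2-fold of the median. Rpl41, whose protein is among the shortest known with a coding length of 78 bases, was highest, at 2580, 3115 and 2991 CPM per kb in WT and 2647, 2662 and 2499 CPM per kb in KO-labelled libraries. It was followed in WT by Rps18 (2000 CPM per kb), Rpl26 (1989 CPM per kb), Rpl32 (1950 CPM per kb) and Rpl13a (1909 CPM per kb). Those 4 differed from each other by less than the spread between libraries.

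The lowest per length in WT were Rps20 (193 CPM per kb), Rpl17 (287 CPM per kb), Rps27l (315 CPM per kb), Rpl7a (392 CPM per kb) and Rpl21 (443 CPM per kb). The transcript used for Rps20 was 3706 bases long with a coding length of 360 bases, against a median transcript of 681 bases for the genes, so its level depends on that annotation. Rpl17, Rpl7a and Rpl21 were 3 of the 5 genes whose pseudogene rows together exceeded the gene itself. The 11 rows named as Rpl17 pseudogenes summed to 1444 CPM where Rpl17 had 222.6 CPM, 6.49 times as much. The ratio was 2.38 for Rps12 (24 rows), 1.87 for Rpl7a (14 rows), 1.18 for Rpl15 (6 rows) and 1.14 for Rpl21 (15 rows). Of the 79 genes, 61 had such rows and 31 had rows that summed to at least 10% of the gene. The authors' handling of reads that match several copies was not given in the sources used here. Levels of these genes are therefore uncertain. With each gene's pseudogene rows added to it before the fit, edgeR again called 0 of 79, with a median log2 fold change of -0.15.

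**Figure D3:**
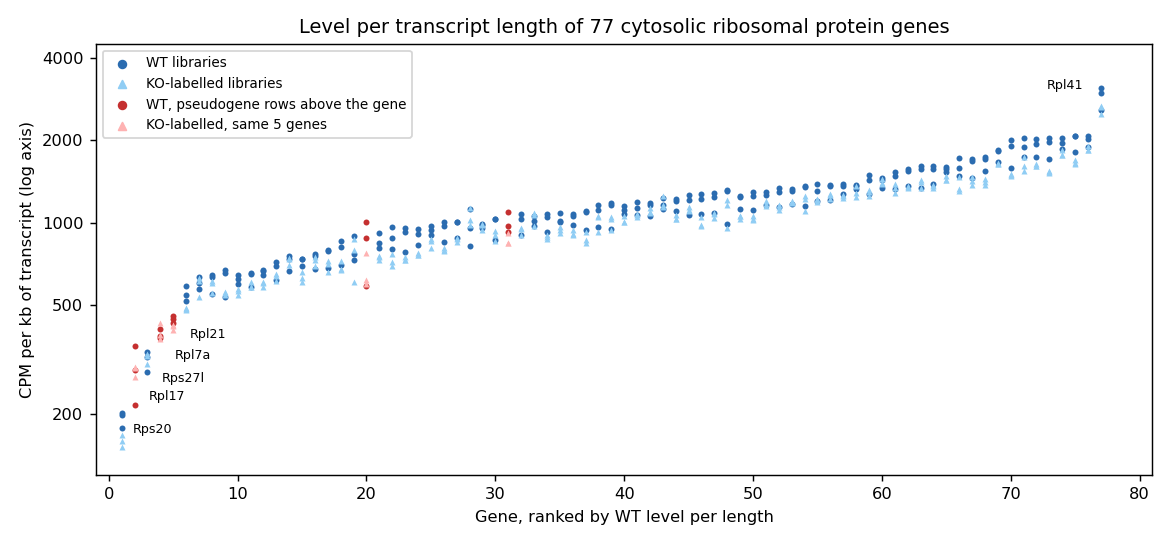
Level in CPM per kb of transcript (log axis) in each of the 6 input libraries for the 77 genes with a coding transcript, ranked by WT mean; circles are WT and triangles KO-labelled libraries. Red marks the 5 genes whose pseudogene rows sum to more than the gene, of which Rpl17, Rpl7a and Rpl21 are among the 5 lowest.

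Deposited m6A peaks were found for 38 of the 79 genes in WT, a smaller share than over all genes. They were 48.1% of the genes, with 49 peaks, and the KO list named 36 of 79 (45.6%), with 47 peaks. The background over all genes of at least 1 CPM was 62.6% in WT and 58.2% in KO. With 1 list per genotype there is no replicate error. The way libraries were merged into a list was not given in the sources used here.

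Coding length moved with this share, and abundance did not in the same order. The median transcript and coding lengths were 681 and 456 bases for the ribosomal protein genes, and 2793 and 1383 bases for other protein-coding genes of at least 1 CPM, of which 72.4% were in the WT list. Among other genes with a coding length of at most 600 bases the share was 60.2%, and among the 79 of those that also had at least 300 CPM it was 60.8%. Among short genes of at least 100 CPM it was 68.3%. By level alone, other genes of 1 to 100 CPM had 70.3%, those of 100 to 300 CPM 82.4% and those of at least 300 CPM 77.4%. Within the ribosomal protein genes, 44.6% of the 56 with a coding length of at most 600 bases were marked and 61.9% of the 21 longer ones. Marked genes had a median of 876.9 CPM in WT and a coding length of 517.5 bases, unmarked genes 714.6 CPM in WT and 408 bases. The part of length in the lower share was not tested.

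The sets of related function lay higher. The WT list named 60 of 78 mitochondrial ribosomal protein genes (76.9%), which have a median coding length of 585 bases, a 3′ UTR of 322.5 bases and a level of 63.7 CPM; the 3′ UTR of the cytosolic genes had a median of 56 bases. It also named 16 of 20 other TOP mRNAs (80.0%) and 39 of 46 ribosome biogenesis genes (84.8%). Of the large subunit genes 27 of 48 (56.3%) were named and of the small subunit genes 11 of 31 (35.5%). In KO these were 25 of 48 and 11 of 31.

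**Figure D4:**
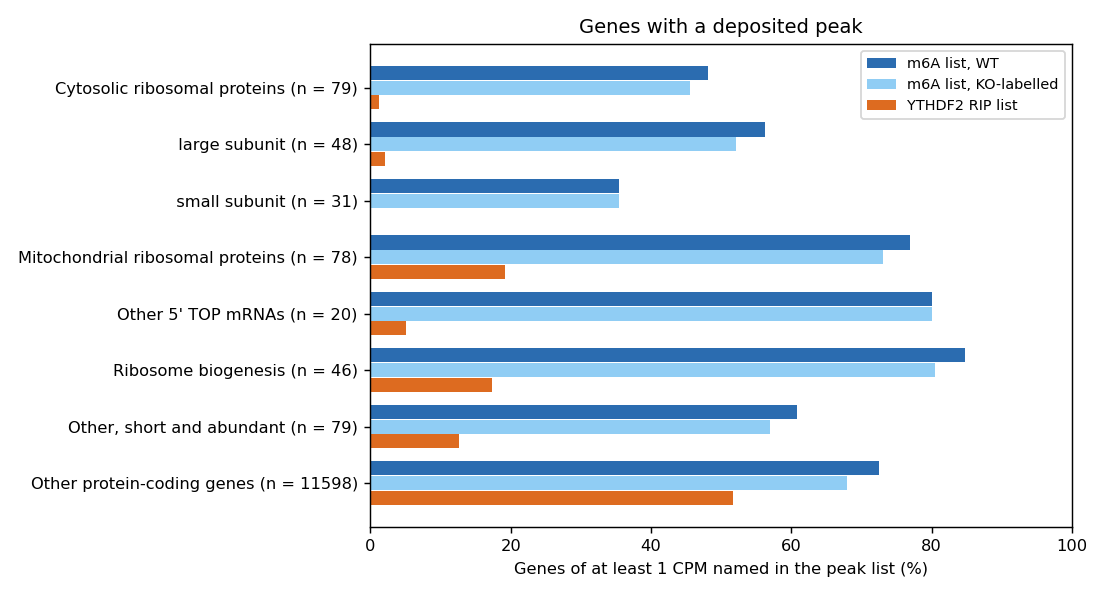
Percentage of genes of at least 1 CPM named in the WT m6A, KO-labelled m6A and YTHDF2 RIP peak lists, for the cytosolic ribosomal protein genes, their subunits and comparison classes (short and abundant: coding length at most 600 bases and at least 300 CPM). The ribosomal protein bars reach 48.1%, 45.6% and 1.27%, below those of the other protein-coding genes at 72.4%, 68.0% and 51.7%.

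Sequence context was described for marked and unmarked members. GGACT occurred in the transcript of 47.4% of the 38 marked genes and 46.2% of the 39 unmarked genes with a coding transcript. Marked transcripts were longer (median 773.5 against 640 bases), and pooled over transcripts they held 0.671 GGACT per kb against 0.941 in unmarked ones. GGACT occurred in 90.6% of other protein-coding genes. It occurred in 72.8% of those with a coding length of at most 600 bases, and in 67.1% of those that also had at least 300 CPM. The median number of DRACH sites was 13 in both. The transcripts held a median of 17.9 DRACH sites per kb, and those of other protein-coding genes 20.1.

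Most peaks were shared between genotypes. Of the 49 WT peaks, 44 (89.8%) shared at least 1 base on the same strand with a KO peak, against 80.3% of the WT peaks of other genes. Of the 47 KO peaks, 45 (95.7%) were overlapped by a WT peak, against 89.3%. The lists named 36 of the genes in both genotypes, Rpl3 and Rpl35a in WT alone, and 0 in KO alone. The WT peaks with no KO partner included those in Rpl3, Rpl35a and Rpl21, and the 2 KO peaks with no WT partner lay in Rpl14 and Rpl36a. These genes were named because the counts are small, after their values were seen, and a gain or loss between single lists has no replicate check.

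Fold changes were small in marked and unmarked members. The median log2 fold change was -0.11 for the 38 genes with a WT m6A peak and -0.16 for the 41 without. The KO-labelled values lay wholly below the WT values in 13 of the 38 and in 21 of the 41, against 16.2% of all genes tested. Marked and unmarked genes also differed in level and coding length, as given above, and the part of these was not tested.

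Most placed peaks lay near the stop codon in these short mRNAs. Peak centres could be placed on the coding transcript for 38 of the 49 WT peaks, and 31 of these fell within coding sequence (81.6%), 5 within the 3′ UTR (13.2%) and 2 within the 5′ UTR. Other genes had 62.1% and 34.1% for the first 2 shares. A distance of at most 200 bases from the stop codon was found for 26 of 38 (68.4%), where 35.5% of the bases of all these transcripts lie that near. In other genes the share was 26.2%, where 11.5% of bases lie that near, and in mitochondrial ribosomal protein genes it was 71.2%. Of 100-base windows around the centres 78.9% held DRACH and 13.2% held GGACT, against 82.8% and 7.27% of all windows of these transcripts. In other genes the windows gave 92.3% and 16.7%, against 86.1% and 10.1%.

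**Figure D5:**
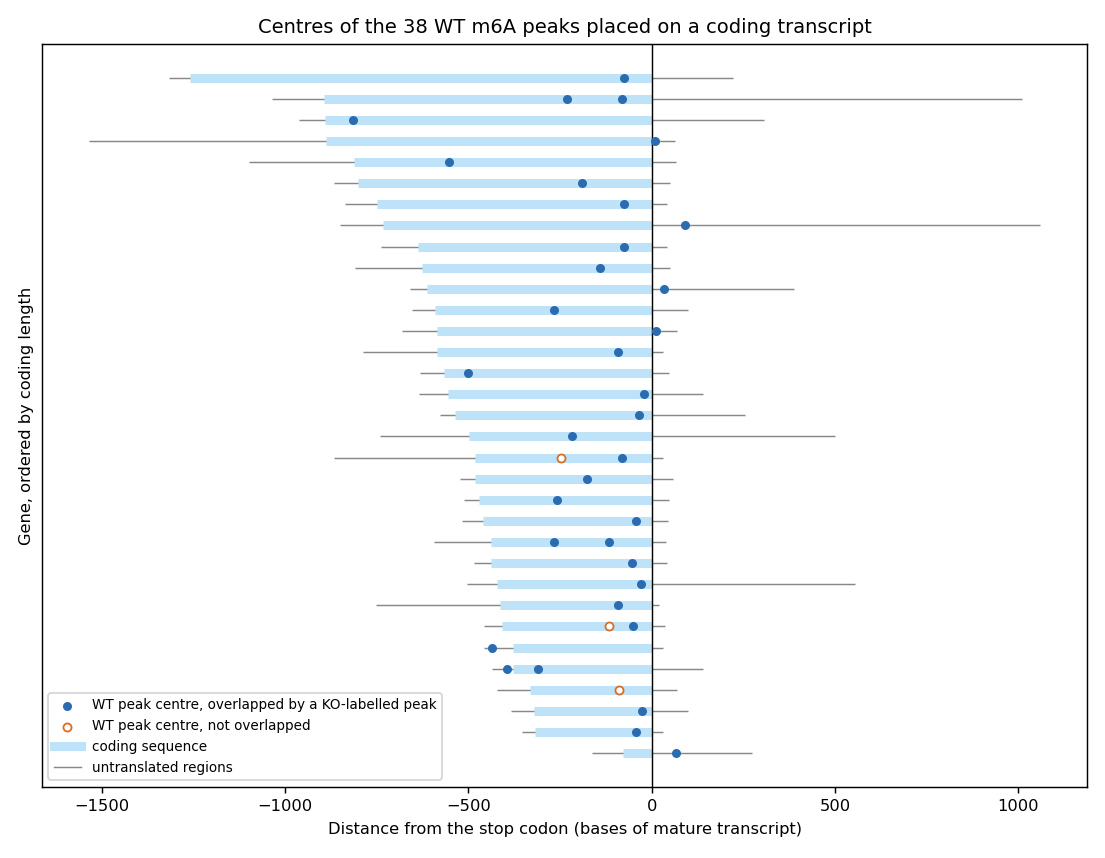
Each line is the mature coding transcript of 1 gene, ordered by coding length with the longest at the top and aligned at the stop codon (position 0, bases of mature transcript), with the coding sequence thick and the untranslated regions thin; points are centres of the 38 placed WT m6A peaks. Of these, 26 lie within 200 bases of the stop codon, and open points mark those with no overlapping KO-labelled peak.

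The strongest marked genes have distinct roles. The genes with the lowest WT scores included Rpl14, Rpl4, Rpl19, Rpl13a, Rpl5, Rpl21, Rps6, Rpl26 and Rps3. The Rpl21 peak with that score had 113 of its 270 bases in exons of coding transcripts. The same peak overlapped the snoRNA gene Gm23202 and had no KO partner. Rps6 is the substrate of the S6 kinases, and its peak, centred 75 bases before the stop codon, covers the end of the coding sequence printed above. The centre in Rpl4 lay 76 bases before the stop codon, that in Rpl26, at the tunnel exit, 54 bases before it, and that in Rpl13a 33 bases after it. Rps3, at the mRNA entry site, had its centre 90 bases after the stop codon. The score mixes the size of an enrichment with the depth of the gene, so this order is not one of methylation level.

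Some peaks lay mostly outside the mature mRNA, and 1 of 49 WT peaks, in Rpl23, lay wholly outside it. In 11 of 49 WT peaks (22.4%), in 10 genes, fewer than 50% of the bases fell inside exons of the gene's coding transcripts, against 5.15% in other protein-coding genes, 8.14% in those with a coding length of at most 600 bases and 7.41% in mitochondrial ribosomal protein genes. Of these 11, 10 overlapped an annotated retained-intron transcript, as did 24 of the other 38. In KO it was 10 of 47 (21.3%). Ribosomal protein introns often hold snoRNAs, which guide rRNA modification. A WT peak of Rpl21 overlapped the snoRNA gene Gm23202. Counting only peaks with at least 50% of their bases in coding transcripts left 35 of 77 genes marked in WT (45.5%) and 34 of 77 in KO (44.2%), against 71.3% and 66.8% of other protein-coding genes. The RNA was selected for poly(A), and the share of unspliced RNA in it was not tested.

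The YTHDF2 RIP list named 1 of the 79 genes (1.27%), against 43.8% of all genes of at least 1 CPM. The share was 30.9% among other protein-coding genes of at least 300 CPM, 29.4% among those with a coding length of at most 600 bases and 12.7% (10 of 79) among those that met both limits. It was 19.2% for the mitochondrial ribosomal protein genes (15 of 78), 17.4% for ribosome biogenesis genes (8 of 46) and 5.00% for other TOP mRNAs (1 of 20). The part of length and abundance in the low share was not tested.

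The exception was Rpl13, a large subunit gene at 1385 ± 76.3 CPM (SD, n = 3) in WT. Its RIP peak was 61 bases long, at chr8:123103783-123103843 on the plus strand, with a deposited score of 3e-06. None of its bases lay in an exon of a coding transcript of Rpl13, and it fell in an annotated retained-intron transcript. Counting only peaks with at least 50% of their bases in coding transcripts left 0 of 77 genes in the RIP list, against 50.98% of other protein-coding genes. None of the 49 WT m6A peaks was overlapped by a RIP peak, against 48.4% of the WT m6A peaks of other genes. The Rpl13 peak was the only RIP peak of the ribosomal protein genes. The lack of overlap therefore largely follows from that, and it is not a separate result. RIP counts per library were not analysed here, so a gene outside the list is one with no deposited peak and not one shown to be unbound.

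The wider ribosome programme was described from lists of genes in the same test. None of the 78 mitochondrial ribosomal protein genes was called by edgeR (22 at an unadjusted p below 0.05, and 8 higher and 2 lower by DESeq2), and their median log2 fold change was 0.00. In 21 of them (26.9%, against 17.7% of all genes) the KO-labelled values lay wholly above the WT values and in 5 (6.41%, against 16.2%) wholly below, where the cytosolic genes had 0 and 34. Over all genes DESeq2 called 13.2% higher and 7.96% lower, and 29.5% were at an unadjusted p below 0.05, the background for this and the next lists. None of 20 other TOP mRNAs was called (3 at an unadjusted p below 0.05, 1 higher and 2 lower by DESeq2; median -0.01). Their highest member, the elongation factor Eef1a1, stood at 3215 ± 76.1 CPM in WT, and 3371 ± 133 CPM in the KO-labelled libraries. Of 7 ribosomal protein genes outside the naming rule, such as Fau and Rack1, none was called (1 at an unadjusted p below 0.05, 0 by DESeq2), and their median was -0.14. Of 17 regulators of TOP mRNAs and ribosomal protein genes none was called (5 at an unadjusted p below 0.05, 2 higher and 1 lower by DESeq2), with a median of 0.11. In 7 of these 17 the KO-labelled values lay wholly above the WT values and in 0 wholly below, against 17.7% and 16.2% of all genes. These counts were 1 and 2 for the 20 other TOP mRNAs, and 0 and 1 for the 7 genes outside the naming rule.

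Of 46 ribosome biogenesis genes 1 rose and 2 fell by edgeR (6.52%, against 4.54% of all genes), with a median of -0.09. DESeq2 called 6 higher and 4 lower, and edgeR without the first KO-labelled library 5 higher and 15 lower, where 19.3% and 16.1% of all genes were called. Nolc1, a nucleolar chaperone of snoRNPs, rose from 150.4, 142.7 and 136.2 CPM in WT to 177.8, 177.0 and 189.9 CPM (log2 fold change 0.34, edgeR adjusted p = 0.0449). Sbds, which frees the large subunit for joining, fell from 126.3, 122.5 and 125.2 CPM to 102.2, 101.1 and 103.4 CPM (log2 fold change -0.29, edgeR adjusted p = 0.0462). Taf1d, a subunit of the RNA polymerase I factor SL1, fell from 125.7, 130.1 and 131.4 CPM to 106.3, 97.0 and 91.2 CPM (log2 fold change -0.40, edgeR adjusted p = 0.0400). The groups did not overlap in any of the 3. Leaving out any library other than the first KO-labelled one ended all 3 calls, with edgeR adjusted p-values from 0.0693 to 0.206, while the fold changes kept their direction. Without the filter on low counts edgeR adjusted p-values were 0.0770, 0.0868 and 0.0792, and with total-count scaling Nolc1 had 0.0611.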

How the data were processed

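The authors deposited a table of raw counts per gene covering 6 input libraries, and 3 peak lists, of m6A in WT, of m6A in KO and of YTHDF2 RIP. The deposited peak score lay between 0 and 0.003 and was read as a p-value, from the values alone. Per the submitters' processing notes, the build was mm10 and the tools included HISAT2, HOMER and ChIPseeker, with roles unstated. Counting, strandedness, gene models and peak calling were not given in the sources used here. Overlapping and near-identical genes are therefore uncertain.

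Counts were tested with edgeR 4.0.16 (quasi-likelihood test, TMM, filterByExpr, Benjamini-Hochberg adjustment at 0.05) on 18969 genes. DESeq2 1.42.0, other scalings and filters, a replicate block and fits without each library were alternatives. CPM of single libraries and of the WT and KO-labelled groups use TMM-scaled totals, and ± is the SD. The filters and classes by CPM, levels over the 6 libraries, the comparison with pseudogene rows and the count of 3 use plain library totals. The standard error of a log2 fold change comes from the F statistic. A count of 3, the most that a count of 0 allows, equals 0.0589 to 0.0660 CPM, for counting error only. On simulated counts for this comparison and these 18969 genes, 200 genes were changed, with the lowest-level genes left out of the choice. Of these, 82% of the 2-fold and 99% of the 4-fold changes were recovered. With no change simulated, 2 genes were called.

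Positions, transcripts and sequences came from GENCODE M21 (GRCm38, the assembly of mm10), in which 55141 of 55401 IDs were found, and start regions from RefSeq. Per gene, 1 coding transcript was used, chosen by APPRIS rank, then the longest coding sequence, then the shortest transcript. Peaks were compared with bedtools 2.31.1 (at least 1 base, same strand), and the signal of single IP or RIP libraries was not analysed here.

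Named genes were every gene called, the 5 largest rises and falls, the 5 highest and lowest per length, the 10 lowest WT m6A scores, all genes in the RIP list, members with set roles and, of each list, up to 3 called genes. The members, lists and this rule were chosen with earlier results of these data known. Adding pseudogene rows and counting only peaks in coding transcripts were chosen after seeing the data. Some genes that the rule names are not reported here.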

Additional observations from a re-analysis of the deposited data

How the results depend on the processing

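Every fit left the median log2 fold change of the 79 genes below 0, and no fit called any of them higher. The number called lower was 0 of 79 in the main fit, 2 with total-count scaling, 15 with the 10 CPM filter and 17 with DESeq2, and it ran from 0 to 9 when 1 library was left out. The cause was not tested, and shares over all genes are given above where at hand. The median ran from -0.20 without the first WT library to -0.090 without the second. With the replicate block 0 genes were called and the median was -0.12. The correlations of deviations between same-numbered libraries were 0.05, 0.11 and 0.05, and each library correlated best with its own number, which is a hint from the data and not from the design. The block changed no call of a ribosomal protein gene, and it ended those of Nolc1, Sbds and Taf1d, with edgeR adjusted p-values of 0.0764, 0.0750 and 0.0699. With pseudogene rows added, the share of counts was 7.74% in WT and 6.82% in KO-labelled libraries, where it was 6.57% and 5.83% without them.

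The counts of genes in the m6A lists moved by at most 3 under every alternative, and the single RIP gene became 0 when only peaks in coding transcripts were counted. A limit on the score at 1e-05 removed no m6A peak of these genes, whose highest scores were 4e-11 in WT and 4.2e-09 in KO. The 10 CPM filter left out Rpl32l alone, which has no peak. Neither alternative could therefore change the counts. The overlap counts did not move, but the score limit could not move them, and the 0 overlaps with RIP peaks could not fall. Near 0, some fold changes turned sign. With total-count scaling they were -0.0035 for Rpl4, -0.013 for Rps27l, -0.018 for Rpl7a and -0.027 for Rps2. With the 10 CPM filter they were -0.015, -0.026, -0.029 and -0.038 for the same genes, and -0.0097 for Ythdf2. With 1 library left out, the fold change ran from -0.0016 to 0.22 for Rplp2, from -0.0014 to 0.091 for Rpl4, from -0.054 to 0.076 for Rps27l, from -0.027 to 0.067 for Rpl7a, from -0.021 to 0.050 for Rps2 and from -0.036 to 0.14 for Ythdf2. Peaks have no replicate error. Fold changes as small as those of the 79 genes were not simulated.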
